A study of Mus musculus with 12 samples.

Results

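The motile cilium axoneme genes described here encode the microtubule core of beating cilia and the motors attached to it. They were picked by name alone: symbols that start with Dnah, Dnai, Dnaic, Dnal, Dnali, Cfap, Rsph, Drc or Tekt followed by a digit, together with Foxj1, Spag17, Ccdc39 and Ccdc40. This gave 73 of the 24704 genes measured in whole mouse lung. The rule uses no expression value, but it was set with earlier results of these data known. All 73 were kept whatever their level. A name is a loose criterion, and 10 of the 73, among them Cfap36, Cfap97 and Cfap410, were not given a place in the axoneme here.

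Expression was measured on Affymetrix arrays in 12 lungs, 3 in each of 4 groups. All mice carried floxed Nfat5 alleles. Knockout mice, Nfat5(EC)-/-, lost the transcription factor NFAT5 in endothelial cells after 1 mg tamoxifen a day on 5 days at 10 to 12 weeks of age, and control mice, Nfat5fl/fl, received the solvent miglyol in its place. After 2 to 3 weeks of recovery, lungs came from knockout mice in hypoxia, knockout mice in normoxia, control mice in hypoxia and control mice in normoxia, each exposure lasting 21 days. Tamoxifen went to knockout mice only, so the drug and the deletion cannot be told apart, and no source used here names the Cre driver. Males and females were used. The design text says that preparations with an inadequate expression response to hypoxia were excluded, so the hypoxia comparisons rest on animals chosen in part by their response.

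In the lung, motile cilia stand on the multiciliated cells of the airways, where their beat clears mucus. The axoneme has a ring of doublet microtubules around a central pair. Outer and inner dynein arms, each built on very large heavy chains that split ATP, slide neighbouring doublets against each other. Radial spokes pass signals between the central apparatus and the arms, the nexin-dynein regulatory complex tethers the doublets, and CCDC39 with CCDC40 forms the ruler that sets the spacing of arms and spokes. FOXJ1 and the RFX factors switch these genes on. Endothelial cells, the site of the deletion, carry no motile cilia.

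RFX factors bind the X-box, and the promoters were searched for it because it is the DNA element most closely tied to ciliary genes. Promoter windows from RefSeq on GRCm38.p6, cut to the 250 bases before the gene's start, were at hand for 62 of the 73 genes. A gene was counted where any of its windows held the motif. An X-box, searched on both strands as GTTNCC, 3 free bases and GNAAC, was found in 4 of the 62 genes (6.45%). Of the 18379 measured genes that had a window, 0.887% held one. The shorter core GTTGCCA, which can lie inside an X-box, was found in 11 of 62 (17.7%) and in 4.16% of all genes with a window. The forkhead core TGTTTAC was found in 6.45% against 3.16%, and CCAAT in 37.1% against 38.8%. Of the 62 genes, 15 were called lower with hypoxia in control lungs, as described below. The X-box was in 1 of these 15 (6.67%) and 3 of the other 47 (6.38%), and the core GTTGCCA in 13.3% and 19.1%. The windows with an X-box belonged to Cfap44, Cfap45, Cfap298 and Cfap20dc. A match describes these letters in this window only. The sequences of Cfap44, Cfap45 and Cfap298 are shown because they hold the X-box (capitals), and that of Dnah12, the gene with the largest change described below, because its window holds neither the X-box nor its core. They lie on the plus strand at chr16:44394549-44394798 (Cfap44), chr1:172520880-172521129 (Cfap45) and chr14:26691304-26691553 (Dnah12), and on the minus strand at chr16:90934850-90935099 (Cfap298), each read 5′ to 3′ and ending at the base before the start.
Cfap44: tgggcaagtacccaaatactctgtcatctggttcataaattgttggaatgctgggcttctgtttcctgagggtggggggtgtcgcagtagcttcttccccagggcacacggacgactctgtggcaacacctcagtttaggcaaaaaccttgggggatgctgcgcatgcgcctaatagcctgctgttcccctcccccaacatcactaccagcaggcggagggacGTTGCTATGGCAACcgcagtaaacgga
Cfap45: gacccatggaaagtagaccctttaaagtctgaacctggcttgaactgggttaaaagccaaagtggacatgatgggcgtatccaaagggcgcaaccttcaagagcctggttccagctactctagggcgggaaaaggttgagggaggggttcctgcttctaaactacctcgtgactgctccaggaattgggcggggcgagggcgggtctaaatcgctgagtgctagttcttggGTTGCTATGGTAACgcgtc
Cfap298: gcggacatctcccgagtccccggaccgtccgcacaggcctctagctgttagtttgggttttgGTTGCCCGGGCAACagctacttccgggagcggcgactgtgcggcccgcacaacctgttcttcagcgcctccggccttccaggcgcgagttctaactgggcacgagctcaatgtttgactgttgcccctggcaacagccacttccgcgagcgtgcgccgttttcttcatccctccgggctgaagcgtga
Dnah12: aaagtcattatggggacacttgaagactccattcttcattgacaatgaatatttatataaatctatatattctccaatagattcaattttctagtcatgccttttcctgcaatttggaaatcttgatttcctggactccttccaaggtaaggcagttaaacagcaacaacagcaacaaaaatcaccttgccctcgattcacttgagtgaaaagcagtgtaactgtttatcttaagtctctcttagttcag

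Across the data set, arrays of a group correlated with r between 0.989 and 0.994, and the median within-group SD of a gene was 0.15 on the log2 scale. Nfat5 was 8.17, 8.46 and 8.40 in hypoxic knockout lungs, 8.59, 8.80 and 8.62 in normoxic knockout lungs, 8.61, 8.16 and 8.51 in hypoxic control lungs, and 9.01, 9.39 and 8.92 in normoxic control lungs. Its arrays did not overlap between genotypes in normoxia and overlapped in hypoxia, in a tissue where most cells keep the gene. It was not called lower by limma in either oxygen state. In normoxia 0% of all genes were called lower in knockout lungs, and 6.22% had knockout arrays wholly below control arrays. In hypoxia its change between genotypes was -0.08 ± 0.15 (SE; adjusted p = 0.97). Defining markers of ciliated cells were measured in every lung, with Sec14l3 between 11.78 and 12.06 and Tppp3 between 10.20 and 10.72, and the whole list of 20 such markers, which moved with hypoxia, is described below. Markers of other tissues stood out in single arrays. Ucp1 of brown fat was 9.31 in normoxic knockout 2 and 7.66 in hypoxic control 1, against at most 4.28 elsewhere, and Nppa of heart atria was 11.94 in normoxic knockout 2 and 9.41 in normoxic knockout 4. The mean of 3 Y-linked genes ran from 2.99 to 5.36 in hypoxic and 2.98 to 6.66 in normoxic knockout lungs, and from 3.08 to 5.34 in hypoxic and 3.04 to 6.69 in normoxic control lungs. It was high in 1 of 3 arrays of each hypoxic group and 2 of 3 of each normoxic group, so sex was not balanced over oxygen. With that mean as a covariate, 16 axoneme genes were called lower and 1 higher with hypoxia in control lungs, where 7.26% of all genes were called in either direction. Without the covariate there were 18 and 1, where 6.14% of all genes were called lower and 5.36% higher. In bulk lung, fewer ciliated cells and less RNA per ciliated cell cannot be told apart.

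In control lungs, the RNA of 18 of the 73 axoneme genes fell with chronic hypoxia and that of 1 rose. A gene was called where limma's adjusted p over all 24704 genes was under 0.05. The genes that fell were dynein heavy chains (8), central apparatus genes (7) and ruler or tether genes (3), and the fall ranged from 4.61-fold for Dnah12 to 1.27-fold for Dnah9. Among the 73 genes, no intermediate or light chain, tektin or other doublet inner protein passed the test. Genes of such roles with symbols outside the name rule were not counted here. The 18 are 24.7% of the axoneme genes, beside 6.14% of all genes called lower, and the 1 gene called higher, Rsph3a, is 1.37% beside 5.36%. Among genes with a mean of at least 5, 26.4% were called in either direction. Of the 54 axoneme genes among them, 17 were called lower and 2 higher. The median change was -0.13 on the log2 scale over the 73 genes and 0.01 over all genes, and 51 of the 73 changes were below 0 (69.9%, against 47.7% of all genes). The 3 hypoxic arrays lay wholly below the 3 normoxic ones for 23 of the 73, where 13.7% of all genes did so, and wholly above for 7, where 14% did. The number that fell depended on single arrays, and so did the share of all genes called, whose range is given in the last section. The number that fell was 7 without hypoxic control 2, 9 without normoxic control 1 and 12 without normoxic control 2. Rsph3a was not called without hypoxic control 2 or normoxic control 2. Whether axoneme genes depended on single arrays more than other genes was not tested. Dnah3, Dnah6, Dnah11, Dnah12, Cfap47, Cfap54 and Cfap65 stayed called whichever of the 12 arrays was left out.

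**Figure D1:**
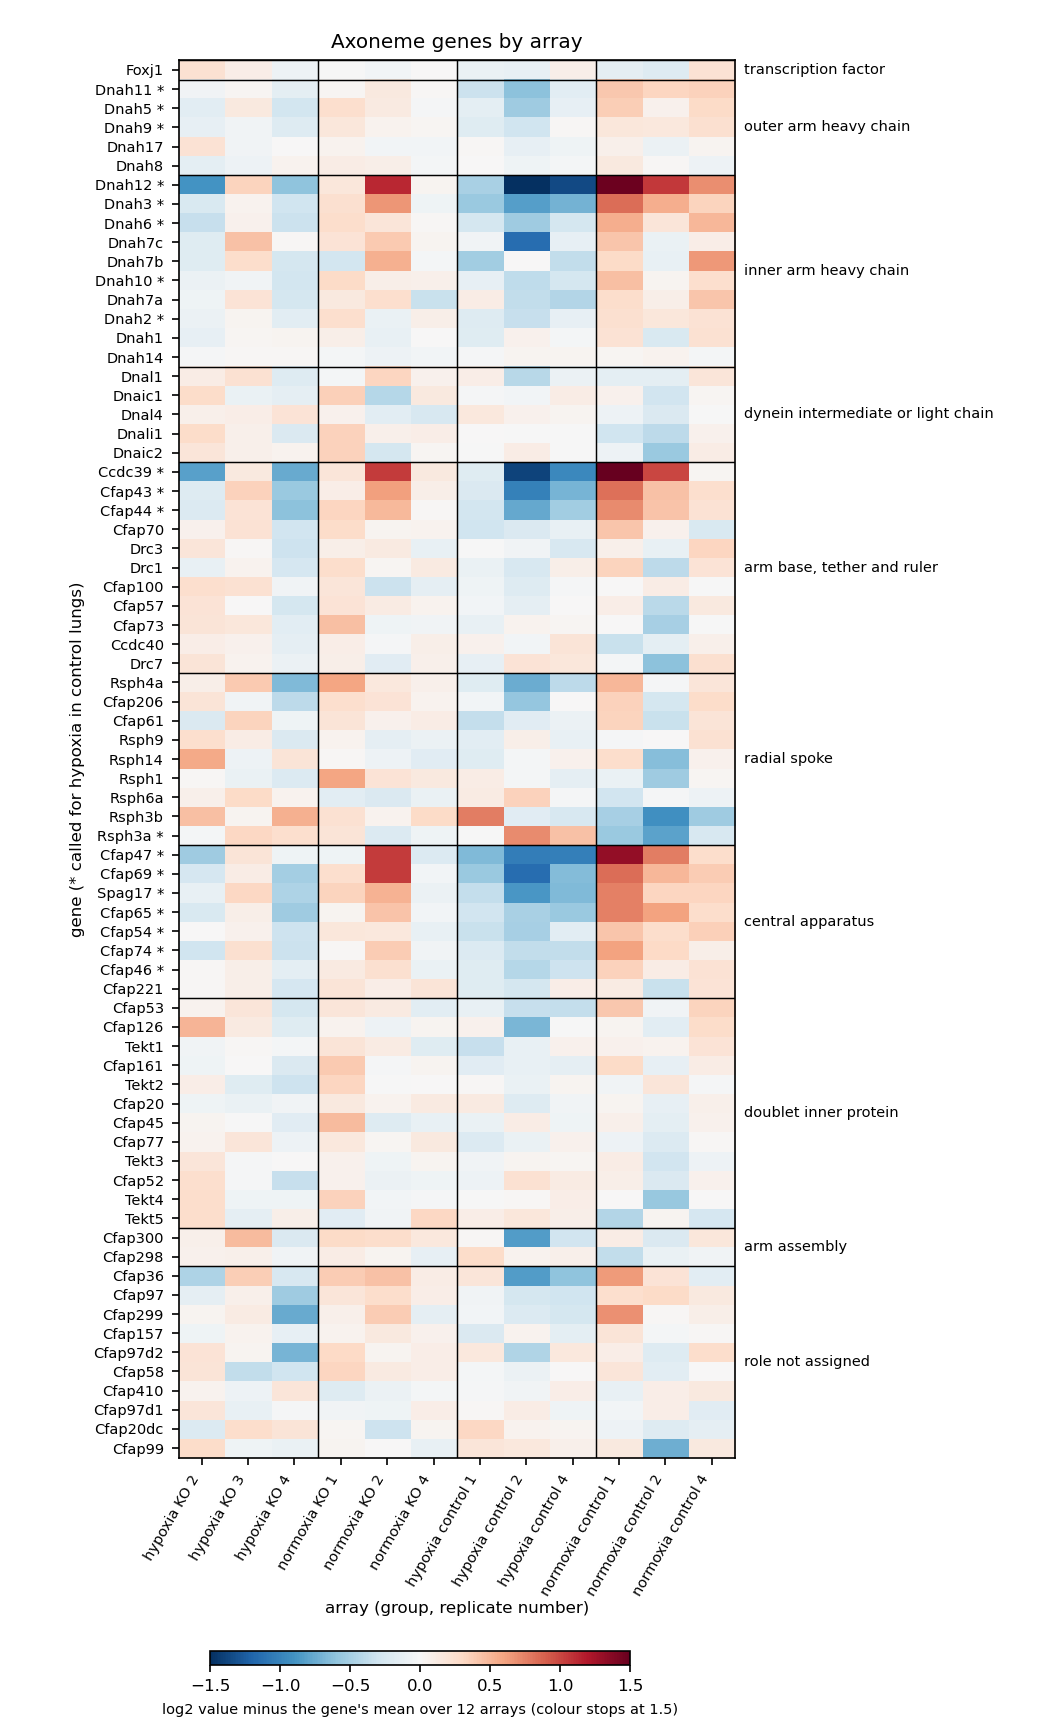
Each of the 73 axoneme genes (rows, grouped by role) in each of the 12 arrays (columns), coloured by its log2 value minus the gene's mean over all arrays, with asterisks on the 19 genes called for hypoxia in control lungs. The deepest blue lies in hypoxic control 2 and the deepest red in normoxic control 1, mainly among dynein heavy chains, Ccdc39 and central apparatus genes, while the rows of doublet inner proteins are paler.

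Foxj1, the forkhead factor needed for motile ciliogenesis, did not pass the test in any contrast. Its log2 level was 8.11, 7.99 and 7.81 in hypoxic knockout lungs and 7.88, 7.84 and 7.89 in normoxic knockout lungs. It was 7.79, 7.77 and 7.97 in hypoxic control lungs and 7.75, 7.69 and 8.11 in normoxic control lungs. The groups overlapped in either genotype. The change with hypoxia was 0.10 ± 0.12 (SE; adjusted p = 0.82) in knockout lungs and -0.00 ± 0.12 (adjusted p = 0.99) in control lungs.

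Outer dynein arms give the beat its power. In human airway cilia DNAH5 is their heavy chain along the whole axoneme, paired with DNAH11 near the base and DNAH9 further out. The genes for all of these fell in hypoxic control lungs. Dnah11 was 6.28, 6.0 and 6.45 in hypoxic control lungs, against 7.01, 6.93 and 6.95 in normoxic control lungs, a change of -0.72 ± 0.11 (adjusted p = 0.0049). Dnah5 was 7.51, 7.14 and 7.55 in hypoxic control lungs and 8.04, 7.74 and 7.95 in normoxic ones (-0.51 ± 0.14, adjusted p = 0.040). For both genes the highest hypoxic array lay below the lowest normoxic array. Dnah9 changed by -0.34 ± 0.09 (adjusted p = 0.033). The call of Dnah5 was lost without hypoxic control 2 (-0.38, adjusted p = 0.16), normoxic control 1, 2 or 4, hypoxic knockout 2 or normoxic knockout 2. That of Dnah9 was lost without any control array but hypoxic control 4 (-0.27, adjusted p = 0.13, without hypoxic control 2). Dnah8 and Dnah17, outer arm chains best known from sperm, changed by -0.06 ± 0.09 (adjusted p = 0.72) and -0.07 ± 0.09 (adjusted p = 0.70).

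Inner dynein arms shape the bend of the beat, and 5 of their 10 heavy chain genes fell, the largest fall of the 73 genes being that of Dnah12. Dnah12 was 6.31, 5.25 and 5.44 in hypoxic control lungs, against 8.27, 7.86 and 7.49 in normoxic control lungs, a change of -2.21 ± 0.38 (adjusted p = 0.0073). The hypoxic arrays all lay more than 1 log2 unit below the lowest normoxic array. Dnah3 was 6.16, 5.89 and 6.02 in hypoxic control lungs and 7.56, 7.27 and 7.05 in normoxic ones (-1.27 ± 0.18, adjusted p = 0.0048). Dnah6 was 7.38, 7.11 and 7.38 in hypoxic control lungs and 8.20, 7.84 and 8.14 in normoxic ones (-0.76 ± 0.14, adjusted p = 0.0084). Neither gene's groups overlapped. Dnah10, a chain of the only inner arm with paired heavy chains, changed by -0.51 ± 0.12 (adjusted p = 0.021), and Dnah2, its partner, was also called lower. The call of Dnah10 was lost without hypoxic control 2 (-0.44, adjusted p = 0.087), hypoxic control 4 or normoxic control 1. Dnah1, Dnah14 and the near-identical Dnah7a, Dnah7b and Dnah7c were not called, and array probes may not tell those 3 apart. Of the 15 heavy chain genes of both arms, 14 changes were below 0, and their median was -0.51. Their mean per array was 4.94 to 5.19 in hypoxic control lungs and 5.53 to 5.78 in normoxic control lungs, with no overlap.

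**Figure D2:**
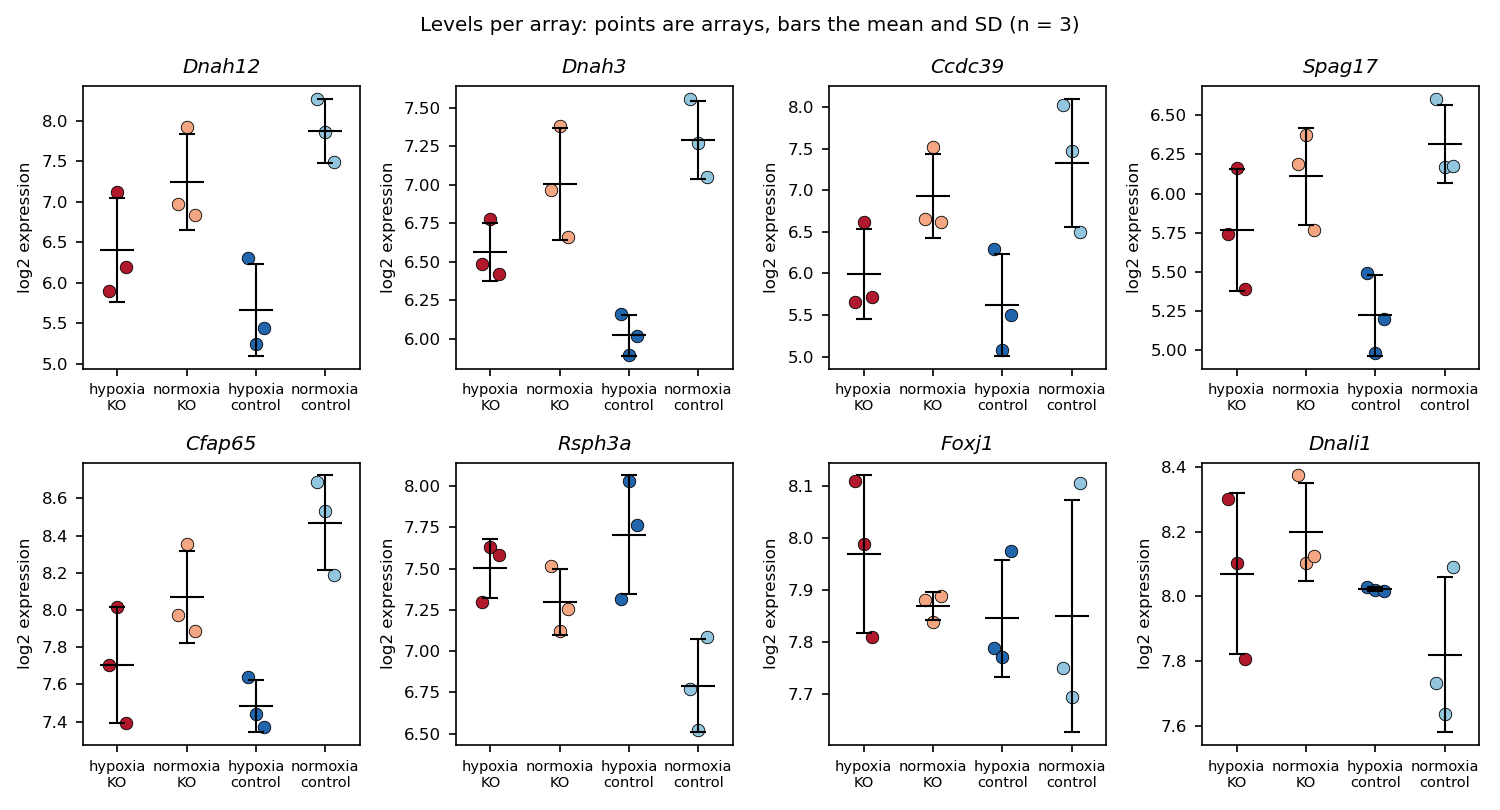
Log2 expression (vertical axis, a separate scale for each gene) of 8 axoneme genes in the 4 groups, where points are arrays and bars the mean and SD of 3 arrays. Dnah12, Dnah3, Ccdc39, Spag17 and Cfap65 are lower in all 3 hypoxic control arrays than in any normoxic control array, Rsph3a is higher, and Foxj1 and Dnali1 overlap.

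None of the 5 genes for intermediate or light chains picked by name passed the test. DNAIC1 and DNAIC2 are intermediate chains that hold the outer arm together, and DNALI1 is a light intermediate chain of inner arms. Dnali1 was 8.03, 8.02 and 8.02 in hypoxic control lungs, against 7.73, 7.64 and 8.09 in normoxic control lungs (0.20 ± 0.14, adjusted p = 0.40). Dnaic2 changed by 0.21 ± 0.17 (adjusted p = 0.48), Dnal4 by 0.19 ± 0.10 (adjusted p = 0.23) and Dnal1 by -0.10 ± 0.16 (adjusted p = 0.74). Of the 5 genes, including Dnaic1, 4 had a change above 0 and 0 were called, with a median of 0.19. Their mean per array was 6.44 to 6.54 in hypoxic control lungs and 6.17 to 6.57 in normoxic control lungs, so the groups overlapped. Cfap298 and Cfap300, whose products help to assemble dynein arms in the cytoplasm, changed by 0.31 ± 0.11 (adjusted p = 0.082) and -0.39 ± 0.21 (adjusted p = 0.26).

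Of the 11 genes for the ruler, the tethers of the arms and the regulatory complex, 3 fell. Ccdc39, one chain of the ruler, was 6.29, 5.08 and 5.51 in hypoxic control lungs, against 8.02, 7.47 and 6.50 in normoxic control lungs (-1.71 ± 0.42, adjusted p = 0.026). The gap between the groups lay between 6.29 in hypoxic control 1 and 6.50 in normoxic control 4, and the call was lost without hypoxic control 2 (-1.43, adjusted p = 0.11), hypoxic control 4, normoxic control 1 or normoxic control 2. Ccdc40, the other chain of the same ruler, was 5.68, 5.57 and 5.80 in hypoxic control lungs and 5.28, 5.47 and 5.69 in normoxic ones (0.21 ± 0.11, adjusted p = 0.27). CFAP43 and CFAP44 tether the head of an inner arm to the doublet, as shown in protists. Cfap43 was 7.30, 6.50 and 6.81 in hypoxic control lungs and 8.34, 7.95 and 7.76 in normoxic ones (-1.15 ± 0.26, adjusted p = 0.019). Cfap44, one of the genes with an X-box, was 7.37, 6.88 and 7.12 in hypoxic control lungs and 8.36, 8.08 and 7.86 in normoxic ones (-0.98 ± 0.21, adjusted p = 0.016). Both genes were lower in every hypoxic control array, and both calls were lost without hypoxic control 2 (-0.96 and -0.85, adjusted p = 0.081 and 0.071), normoxic control 1 or normoxic control 2. The regulatory complex genes Drc1, Drc3 and Drc7 were not called, nor were Cfap57, Cfap70, Cfap73 and Cfap100. The median of the 11 was -0.13.

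In the central apparatus 7 of 8 genes picked by name fell. It is the pair of microtubules and projections at the centre of the axoneme, and SPAG17 and CFAP54 are projection proteins needed for ciliary beating in mice. Spag17 was 5.49, 4.98 and 5.19 in hypoxic control lungs, against 6.61, 6.17 and 6.18 in normoxic control lungs (-1.10 ± 0.22, adjusted p = 0.012). Cfap65 was 7.64, 7.44 and 7.37 in hypoxic control lungs and 8.69, 8.53 and 8.19 in normoxic ones (-0.99 ± 0.18, adjusted p = 0.0084). Cfap47 was 3.90, 3.52 and 3.53 in hypoxic control lungs and 5.88, 5.33 and 4.83 in normoxic ones (-1.69 ± 0.33, adjusted p = 0.011). None of these genes overlapped between the groups. Cfap69 changed by -1.36 ± 0.26 (adjusted p = 0.011) and Cfap54 by -0.67 ± 0.13 (adjusted p = 0.0094), and Cfap46 and Cfap74 were called lower too. Spag17 and Cfap69 were not called without hypoxic control 2 (-0.97 and -1.18, adjusted p = 0.056 and 0.050). Cfap221 was the 1 gene of the 8 not called. The median of the 8 changes was -0.83, and all 8 were below 0.

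Radial spokes reach from the doublets to the central apparatus, and of their 9 genes picked by name 0 fell and 1 rose. Spoke genes with other symbols were not counted here. Rsph3a, whose product RSPH3 lies in the spoke stalk, was 7.32, 8.03 and 7.77 in hypoxic control lungs, against 6.77, 6.52 and 7.08 in normoxic control lungs (0.91 ± 0.19, adjusted p = 0.014). Rsph3b, a near-identical copy that array probes may not separate from it, was 6.06, 5.12 and 5.05 in hypoxic control lungs and 4.80, 4.37 and 4.76 in normoxic ones (0.77 ± 0.24, adjusted p = 0.058). The hypoxic arrays lay above the normoxic ones for both copies. Without hypoxic control 2 the change of Rsph3a was 0.75 (adjusted p = 0.061). Rsph4a, a spoke head gene, changed by -0.66 ± 0.25 (adjusted p = 0.11). Rsph6a, its relative best known from testis, changed by 0.28 ± 0.11 (adjusted p = 0.12), and Rsph1, Rsph9, Rsph14, Cfap61 and Cfap206 were not called. The median of the 9 was 0.05.

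The 12 genes for proteins inside or along the doublet microtubules, 5 tektins among them, gave 0 calls, and at an unadjusted p under 0.05 the 73 genes together gave 29 (27.4% of all genes had such a p). Cfap53 came nearest, at -0.50 ± 0.15 (adjusted p = 0.055). Tekt1 changed by -0.24 ± 0.12 (adjusted p = 0.22), Tekt5 by 0.33 ± 0.15 (adjusted p = 0.17), Cfap161 by -0.23 ± 0.13 (adjusted p = 0.28) and Cfap20 by -0.03 ± 0.09 (adjusted p = 0.87). The others were Tekt2, Tekt3, Tekt4, Cfap45, Cfap52, Cfap77 and Cfap126. Their changes lay on both sides of 0, with a median of -0.02. The mean of the 12 per array was 5.75 to 5.83 in hypoxic control lungs and 5.70 to 5.91 in normoxic control lungs. Among the 10 genes given no place, 0 were called. Cfap36 changed by -0.65 ± 0.28 (adjusted p = 0.16), Cfap97 by -0.44 ± 0.14 (adjusted p = 0.059), Cfap20dc by 0.27 ± 0.14 (adjusted p = 0.22) and Cfap157 by -0.17 ± 0.10 (adjusted p = 0.30). The rest were Cfap58, Cfap99, Cfap299, Cfap410, Cfap97d1 and Cfap97d2.

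**Figure D3:**
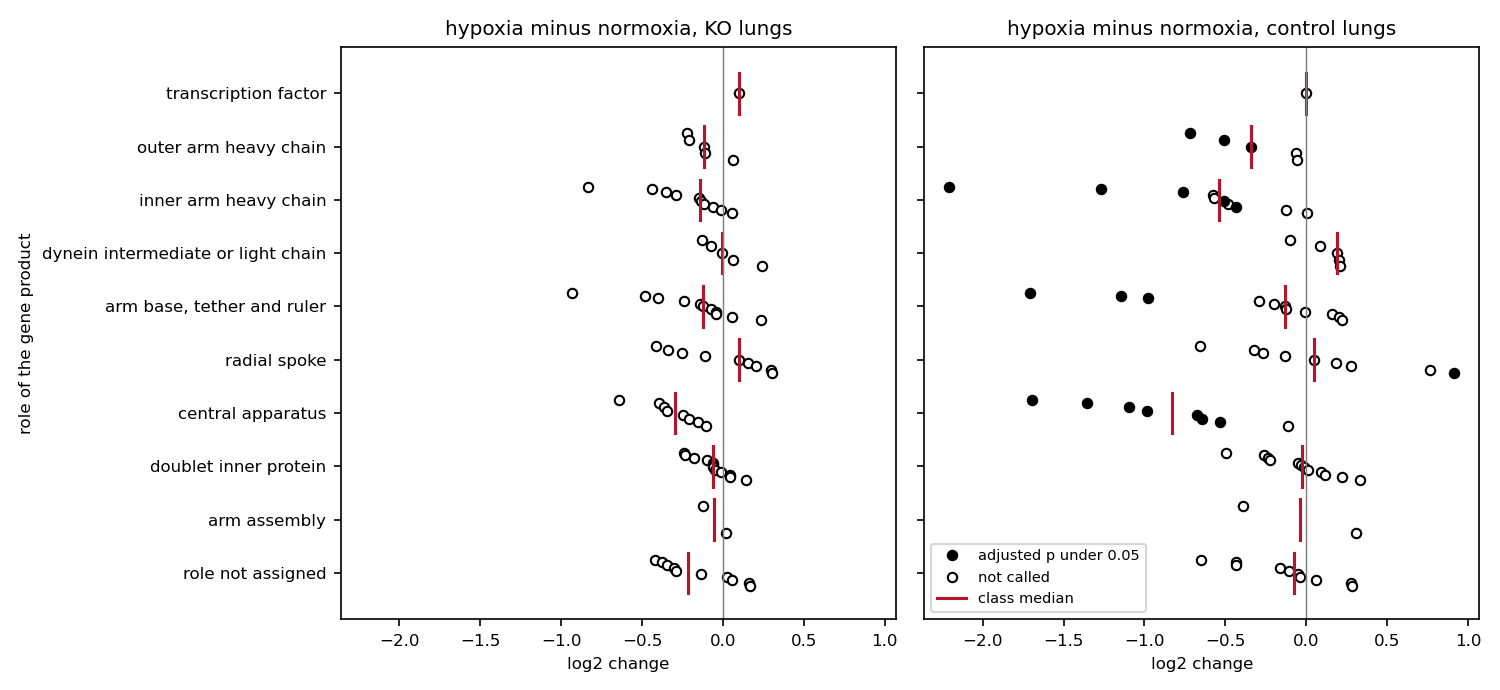
Log2 change, hypoxia minus normoxia, of each axoneme gene (points) by the role of its product, in knockout lungs on the left and control lungs on the right, with filled points for an adjusted p under 0.05 and red bars for the median of each role. In control lungs the heavy chains and the central apparatus sit left of 0, with medians from -0.34 to -0.83, and in knockout lungs no point is filled.

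In knockout lungs, hypoxia gave 0 calls among the 73 genes by limma, where 1.14% of all genes were called (0.502% lower), and 12 of the 73 had an unadjusted p under 0.05 (12.6% of all genes did). The median change was -0.12 over the axoneme genes and 0.00 over all genes, and 53 of the 73 changes were below 0 (72.6%, against 49.1%). The groups did not overlap for 7 genes that were lower in hypoxia and 3 that were higher, where 8.97% and 10.9% of all genes did so. Dnah12 was 5.89, 7.12 and 6.19 in hypoxic knockout lungs, against 6.97, 7.92 and 6.83 in normoxic knockout lungs. These groups overlapped, unlike those of control lungs, and the change was -0.83 ± 0.38 (adjusted p = 0.40). Ccdc39 changed by -0.93 ± 0.42 (adjusted p = 0.39), Cfap69 by -0.64 ± 0.26 (adjusted p = 0.33), Dnah3 by -0.44 ± 0.18 (adjusted p = 0.33) and Rsph3a by 0.21 ± 0.19 (adjusted p = 0.76). The median was -0.29 for the 8 central apparatus genes, all 8 again below 0, and -0.14 for the 15 heavy chains. Normoxic knockout 2, which held brown fat and atrial RNA, had the highest value of its group for Dnah12, Dnah3, Ccdc39, Cfap47 and Spag17. Without it there were still 0 calls.

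Averaged over both genotypes, 19 axoneme genes were called lower (26.0%, beside 7.40% of all genes) and 2 higher (2.74%, beside 7.27%). At an unadjusted p under 0.05 there were 30, where 28.4% of all genes had such a p, and 50 of the 73 changes were below 0, where 48% of all genes were. This contrast added Cfap97 (-0.41 ± 0.10, adjusted p = 0.017) and Rsph6a (0.29 ± 0.08, adjusted p = 0.031) to the genes called in control lungs alone. Dnah3 was at -0.86 ± 0.13 (adjusted p = 0.0022) and Dnah12 at -1.52 ± 0.27 (adjusted p = 0.0048). Leaving out hypoxic control 1 and both knockout arrays with brown fat or atrial RNA leaves 1 normoxic knockout array, assumed to vary like the others. The median change was then -0.19 over the 73 genes and 0.01 over all genes. Rsph6a lost its call without hypoxic knockout 2 or 3, normoxic knockout 1 or 2, hypoxic control 2 (0.24, adjusted p = 0.067) or normoxic control 1.

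Whether the response differed between genotypes was tested with the interaction, the hypoxia change in knockout minus that in control lungs. It gave 0 calls among the 73 by limma (0.00405% of all genes were called) and 10 at an unadjusted p under 0.05, against 8.25% of all genes. Values were above 0 for 45 genes and below 0 for 28, where 50.3% of all genes were below 0. The largest values were those of Dnah12, at 1.37 ± 0.54 (adjusted p = 0.59), Cfap47, at 1.30 ± 0.47 (adjusted p = 0.57), and Dnah3, at 0.83 ± 0.26 (adjusted p = 0.57). Rsph3a was at -0.71 ± 0.27 (adjusted p = 0.57). So the smaller changes of knockout lungs were not shown to differ from those of control lungs.

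The knockout itself gave 0 calls among the 73 in either oxygen state by limma. In hypoxia, knockout minus control had a median of 0.11 over the 73 genes, with 52 changes above 0, and 6 had an unadjusted p under 0.05 (0% of all genes were called and 5.10% had such a p). Cfap47 was at 0.77 ± 0.33 (adjusted p = 0.95), Dnah12 at 0.74 ± 0.38 (adjusted p = 0.95) and Dnah3 at 0.54 ± 0.18 (adjusted p = 0.95). For 5 genes the knockout arrays lay wholly above the control arrays, and for 0 wholly below, where 4.55% and 5.19% of all genes did so. In normoxia 5 genes lay wholly above and 3 wholly below the control arrays, where 5.46% and 6.22% of all genes did so. The median was 0.02, and 6 of the 73 had an unadjusted p under 0.05, against 0.00405% of all genes called and 7.26% with such a p. Rsph3b was 5.53, 5.35 and 5.58 in normoxic knockout lungs, against 4.80, 4.37 and 4.76 in normoxic control lungs (0.84 ± 0.24, adjusted p = 0.56). Its arrays did not overlap, yet it missed the threshold. Dnah12 was at -0.63 ± 0.38 (adjusted p = 0.75) and Rsph3a at 0.51 ± 0.19 (adjusted p = 0.64). These comparisons share their arrays with the hypoxia comparisons, so their values are no further evidence for either. Averaged over oxygen states there were again 0 calls, with 3 genes at an unadjusted p under 0.05, where 0% of all genes were called and 4.26% had such a p.

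Other genes of the motile cilium were read from lists chosen with earlier results of these data known. The counts that follow stand beside 6.14% of all genes called lower and 5.36% called higher with hypoxia in control lungs. Of 44 further axoneme and ciliary motility genes, 6 fell and 0 rose in hypoxic control lungs, with a median of -0.28. Wdr66 changed by -0.49 ± 0.09 (adjusted p = 0.0085), Wdr78 by -1.17 ± 0.21 (adjusted p = 0.0089) and Spef2, a central apparatus gene, by -1.42 ± 0.28 (adjusted p = 0.012). Efhb, Lrrc23 and Spata18 were the others. Genes of this list were not counted in the roles above, wherever their products lie. Of 17 dynein arm assembly genes, 2 fell, Pih1d2 (-0.86 ± 0.13, adjusted p = 0.0051) and Lrrc6 (-1.30 ± 0.29, adjusted p = 0.019), and 1 rose, Pih1d1 (0.47 ± 0.12, adjusted p = 0.029). Intraflagellar transport, which carries axoneme parts to the tip, had 3 of 31 genes lower, among them its motor chain Dync2h1 (-0.99 ± 0.22, adjusted p = 0.018), and a median of -0.04. Without hypoxic control 2, Spef2 (-1.22, adjusted p = 0.054), Lrrc6 (-1.10, adjusted p = 0.081), Pih1d1 (0.44, adjusted p = 0.10) and Dync2h1 (-0.89, adjusted p = 0.078) were not called. Of 21 centriole amplification genes 2 fell, of 9 BBSome genes 3 fell, and of 17 tubulin and tubulin modifier genes 4 rose and 3 fell. Of 14 cytoplasmic dynein and dynactin genes, whose motor carries cargo on other microtubules, 1 rose and 1 fell. In knockout lungs 0 genes of these 7 lists were called.

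Among 18 regulators of multiciliated cells, Rfx3, an X-box factor, fell in hypoxic control lungs (-0.86 ± 0.16 on the log2 scale, adjusted p = 0.0095), as did Rfx7 (-0.54 ± 0.13, adjusted p = 0.021), and Trp73 was the 1 called higher. Without hypoxic control 2, Rfx7 was at -0.48 (adjusted p = 0.087). Gmnc, which starts the multiciliated programme upstream of Foxj1, was 5.24, 5.07 and 5.34 in hypoxic knockout lungs, against 5.81, 6.22 and 5.66 in normoxic knockout lungs. It was 5.28, 5.19 and 5.26 in hypoxic control lungs, against 5.88, 5.90 and 5.73 in normoxic control lungs. Every hypoxic array lay below every normoxic array in both genotypes. The change was -0.68 ± 0.13 (adjusted p = 0.036) in knockout lungs and -0.59 ± 0.13 (adjusted p = 0.017) in control lungs. In control lungs the call was lost without hypoxic control 2 (-0.56, adjusted p = 0.070), normoxic control 1 or normoxic control 2. In knockout lungs it was lost without normoxic knockout 2 (-0.52, adjusted p = 0.087) and without any of normoxic knockout 1, hypoxic knockout 2, 3 or 4 and hypoxic control 2 or 4. It was also lost with the replicate number as a block (-0.60, adjusted p = 0.18), with the 2 groups alone (adjusted p = 0.11), and with the Y-linked (adjusted p = 0.083) or nuclear RNA covariate (adjusted p = 0.061). No other regulator was called in knockout lungs.

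Genes that mark ciliated cells but were not among the axoneme genes picked by name were counted next. Whether their products lie in the axoneme was not assessed. Of 20 such genes, 3 fell in hypoxic control lungs (Lrriq1, Odf3b and Tmem212) and 1 rose (Tuba1a, also a general tubulin), beside 6.14% and 5.36% of all genes, and 18 of 20 changes were below 0, with a median of -0.26. Their mean per array was 7.36 to 7.62 in hypoxic control lungs and 7.77 to 7.90 in normoxic control lungs, with no overlap. Averaged over genotypes 7 of the 20 were called lower (Ccdc153, Fam183b, Tmem212, Lrriq1, Sntn, Odf3b and Cd24a), beside 7.40% of all genes, and Tuba1a was called higher. Lrriq1 changed by -1.54 ± 0.26 (adjusted p = 0.0073) and Odf3b by -0.67 ± 0.17 (adjusted p = 0.027, and 0.094 without hypoxic control 2). The abundant marker Tppp3 was 10.20, 10.47 and 10.39 in hypoxic control lungs, against 10.39, 10.33 and 10.70 in normoxic control lungs, and Sec14l3 was 12.03, 11.78 and 11.91 against 11.94, 11.98 and 12.01. Both overlapped between the groups and were chosen as examples after their values were seen. In knockout lungs 0 of the 20 were called, and the median was -0.13. Other airway and epithelial cells were read in control lungs first. With hypoxia, club cell genes had 1 of 14 higher and 1 lower, and goblet and basal genes 0 of 6 and 0 of 7 called. Neuroendocrine genes had 1 of 4 higher, alveolar type 2 genes 2 of 10 higher, alveolar type 1 genes 2 of 10 higher and 3 lower, and general epithelial genes 1 of 7 higher. In knockout lungs 1 of 10 alveolar type 2 genes (Napsa) and 1 of 10 type 1 genes (Igfbp2) were called higher, beside 0.64% of all genes. The other lists of these cells had 0 calls there. The call of Napsa was lost without normoxic knockout 2 (adjusted p = 0.19). In control lungs all 6 goblet genes were above 0 (median 0.63, highest 2.44). Their mean per array was 4.73 to 5.95 in hypoxic control lungs and 4.38 to 4.62 in normoxic control lungs. The basal mean was 3.66 to 3.76 in hypoxic control lungs and 3.52 to 3.57 in normoxic control lungs. Neither mean overlapped between these groups, and the part of these cells in the axoneme changes was not tested. The mean of the 7 epithelial genes was 7.97 to 8.0 in hypoxic control lungs and 7.58 to 8.03 in normoxic control lungs. Thymus, brown fat and mesothelial markers gave 0 calls in either genotype or averaged over both. Atrial markers gave 0 calls in either genotype, but in knockout lungs all 6 were below 0 (median -1.79), with means of 6.53 to 7.15 in hypoxic and 7.47 to 9.82 in normoxic knockout lungs, and averaged over genotypes Nppa and Myl7 were called lower.

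**Figure D4:**
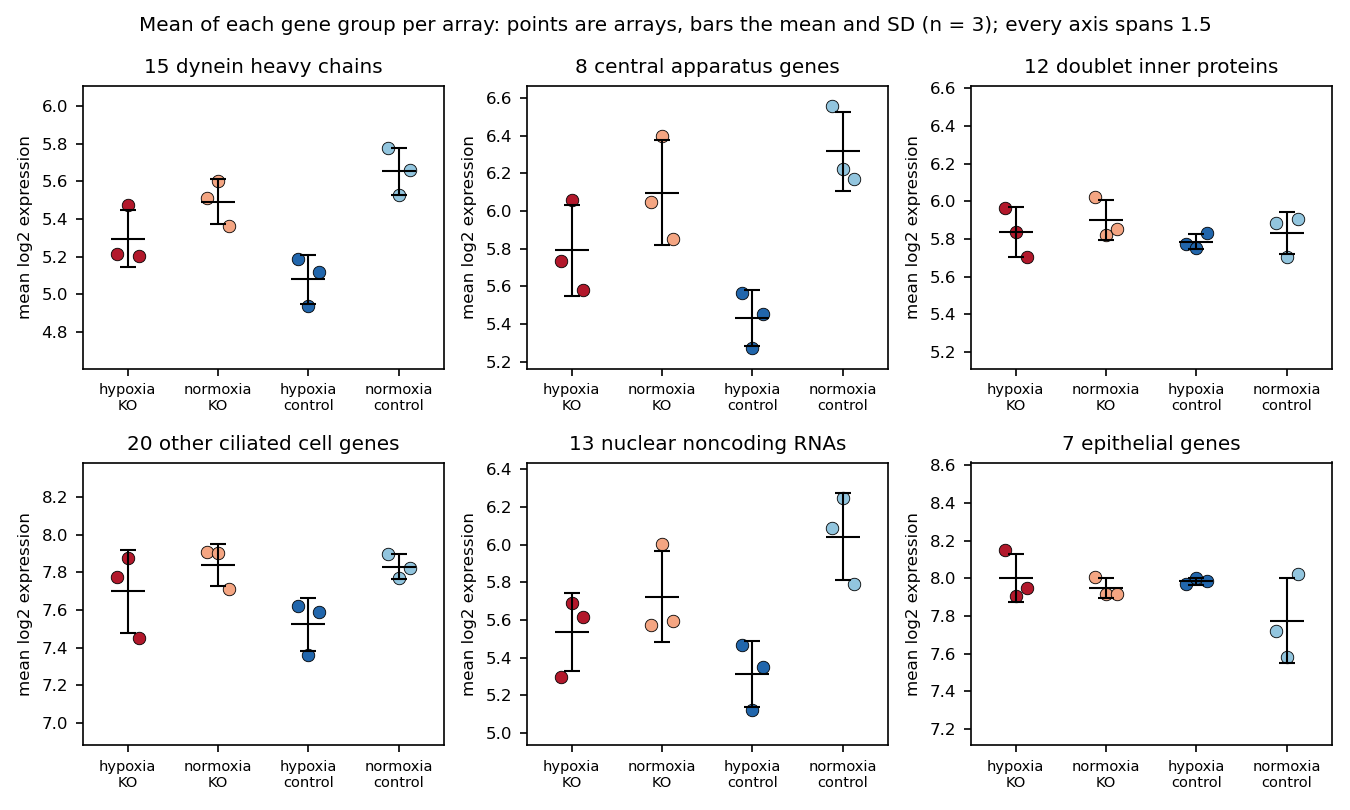
Mean log2 expression per array of 6 gene groups, each in the 4 groups of lungs, where points are arrays and bars the mean and SD of 3 arrays, on vertical axes that all span 1.5. The 15 dynein heavy chains, the 8 central apparatus genes and the 13 nuclear noncoding RNAs are lower in every hypoxic control array than in any normoxic control array. The 20 other ciliated cell genes are too, and the 12 doublet inner proteins and the 7 epithelial genes overlap.

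RNAs that stay in the nucleus moved with these genes. Of 13 nuclear noncoding RNAs, 7 fell in hypoxic control lungs, among them Neat1 (-1.80 ± 0.27, adjusted p = 0.0051), Firre (-1.27 ± 0.20, adjusted p = 0.0053) and Malat1 (-0.96 ± 0.16, adjusted p = 0.0065), and the median was -0.70. Their mean per array was 5.30 to 5.69 in hypoxic and 5.57 to 6.0 in normoxic knockout lungs, and 5.12 to 5.47 in hypoxic and 5.79 to 6.25 in normoxic control lungs. With this mean as a covariate in the fit, 0 of the 73 axoneme genes were called in control lungs, and only 2 of all genes were (0.00810%), and the covariate itself did not overlap between hypoxic and normoxic control lungs. Under it Dnah12 was at -0.68 ± 0.42 (adjusted p = 0.77), Dnah3 at -0.66 ± 0.24 (adjusted p = 0.54), Spag17 at -0.60 ± 0.36 (adjusted p = 0.76) and Rsph3a at 0.42 ± 0.30 (adjusted p = 0.82). Ccdc39 was at 0.00 ± 0.45 (adjusted p = 1.00). The median of the 73 was then -0.32. By role it was -0.41 for the heavy chains, -0.42 for the central apparatus, -0.29 for the doublet inner proteins and -0.23 for the intermediate and light chains, so the roles lay closer together. What part the nuclear RNAs or the state of the RNA have in the changes was not tested.

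**Figure D5:**
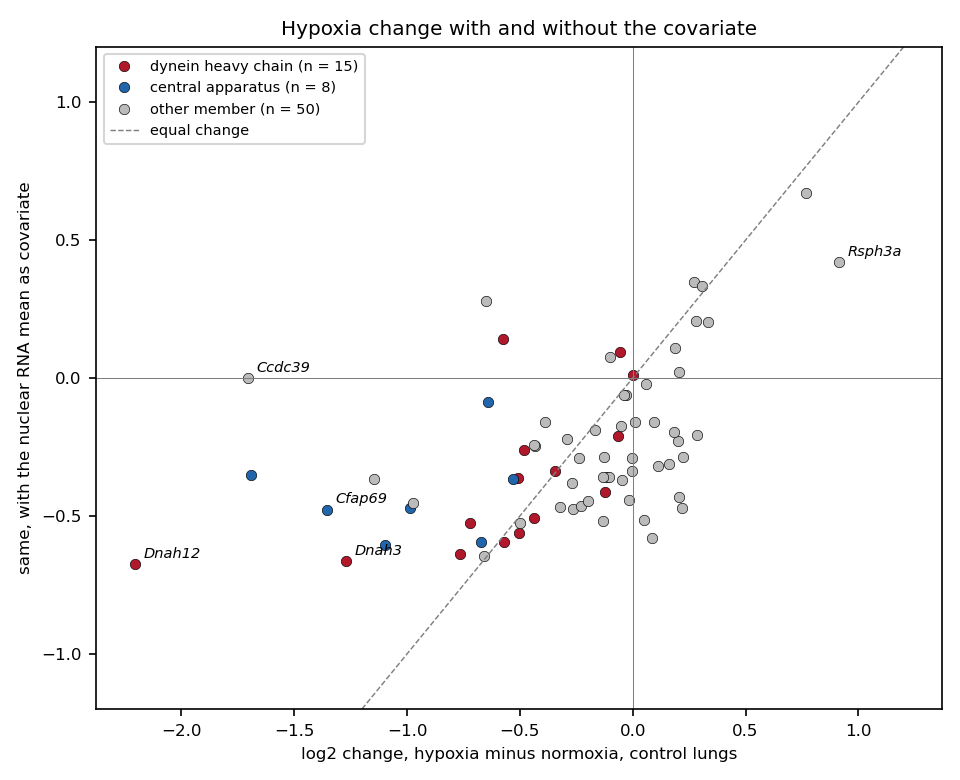
Log2 change with hypoxia in control lungs of the 73 axoneme genes, without (horizontal axis) and with (vertical axis) the mean of the nuclear noncoding RNAs as a covariate, where each point is a gene and the dashed line marks equal change. The largest falls shrink most, Dnah12 to -0.68 and Ccdc39 to 0.00, and many genes near 0 on the horizontal axis move below 0 on the vertical one.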

How the data were processed

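Whole-lung RNA of 12 mice was measured on 1-colour Affymetrix arrays. The deposited log2 values, 1 for each probe set in each array, were made by the authors with RMA, per the submitters' processing notes. No source used here gives its version, a genome build or a filter. After sorting, the arrays held the same values (largest difference 0.0), so they share 1 distribution and a change in total RNA cannot be seen. Values ran from 2.41 to 13.7 with a median of 4.55. Detection of single probe sets was not assessed, and the number of arrays limits the precision.

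Of 25428 probe sets, 24705 had 1 gene symbol in the platform annotation, 723 had none and 0 had several. Of 2 probe sets with the same symbol the one with the higher mean was kept, leaving 24704 genes, with no filter on low values. All 73 axoneme genes were found by Entrez number, with the same symbol, in a RefSeq gene table of GRCm38.p6.

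Groups followed the labels, with 3 arrays each. The design text gives 4 mice per group. Replicates are taken as separate mice; where this fails, p-values measure technical spread. A linear model with 4 group means was fitted per gene (limma 3.58.1, R 4.3.3, 8 residual and 3.61 prior degrees of freedom) with 7 two-sided contrasts. Benjamini-Hochberg adjustment ran over all genes in each contrast, and every adjusted p given is limma's. Errors beside changes are standard errors. The fit was tested on simulated data. No array is dropped or imputed in the values given, unless stated.

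Members, roles and the 22 gene lists (318 entries, 288 measured) were chosen with earlier results of these data known, so no list is independent support. Genes given test values were Foxj1, Spag17, Ccdc39 and Ccdc40, up to 4 per role with the smallest p for hypoxia averaged over genotypes, up to 6 called in each direction per contrast, the 3 highest and 3 lowest means, and up to 3 per list with the smallest p. Promoters came from RefSeq's GRCm38.p6 table, with none from chromosome 18 printed. Alternatives were a replicate block, the 2 groups alone, a mean of at least 5, trended and robust moderation, another centring, covariates for nuclear RNA and Y-linked genes, and leaving out arrays. Same-numbered arrays of different groups deviated together with r from -0.248 to 0.277 over 15 pairs, of which 4 were over 0.1. For arrays with different numbers r ran from -0.321 to 0.341 over 39 pairs, of which 13 were over 0.1. So the numbers were not taken to pair the mice.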

Additional observations from a re-analysis of the deposited data

How the results depend on the processing

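In control lungs, 18 axoneme genes called lower and 1 higher with hypoxia became 18 and 2 with the replicate number as a block (17 of the 18 shared), 12 and 0 with the 2 groups alone, 17 and 2 among the 54 genes with a mean of at least 5, 17 and 2 with trended, robust moderation, and 0 and 0 with the nuclear RNA covariate, which moved the median from -0.13 to -0.32. Averaged over genotypes, 19 lower and 2 higher became 21 and 1 with the block, 0 and 0 with the nuclear RNA covariate, 18 and 0 with the Y-linked covariate, 16 and 1 without the 2 arrays highest in brown fat or atrial RNA, and 6 and 0 without 3 such arrays. Leaving out 1 array in turn gave 7 to 21 lower and 0 to 2 higher in control lungs (median -0.27 to -0.083), and 15 to 21 lower and 1 to 3 higher averaged over genotypes. The share of all genes called ran from 3.27% to 15.9% in control lungs and from 9.12% to 17.9% averaged over genotypes. The other contrasts had 0 calls under each of these that was run (the 2 groups alone give no value for the interaction or for averaged contrasts). Of 18 named calls, the block ended 2 and centring on well-expressed genes ended 0. The nuclear RNA covariate ended 17 and reversed Ccdc39 (0.00057), the only reversal. The cause was not tested. The numbers were not taken to pair the mice. With 3 arrays a group, small changes of weak signals may go uncalled.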
